A study of Mus musculus with 2 samples.

Results

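The keratin-associated proteins are the small matrix proteins that embed and cross-link the keratin filaments of the hair shaft. On these arrays they comprised the 38 genes, of 18193 with a single gene symbol, whose symbol begins with Krtap, and these genes were read by 43 probe sets. Each gene was put in 1 of 3 biochemical classes by its subfamily number, which gave 14 high glycine-tyrosine genes (subfamilies 6, 7, 8, 16, 19, 21 and 22 on the arrays), 14 ultra-high sulfur genes (subfamilies 4, 5, 9, 10, 12 and 17) and 10 high sulfur genes (all other subfamilies). The compared RNA came from hair follicles of dnFGFR2-IIIb transgenic mice and of wild-type mice, both at postnatal day 10. FGFR2-IIIb is the splice form of fibroblast growth factor receptor 2 carried by epithelial cells, and the question of the study was which genes depend on its signalling in the follicle. Each group was a single array hybridised with total RNA of about 300 follicles pooled from 3 mice of different litters, about 100 per mouse. The sources used here do not give the promoter that drives the transgene, nor the strain and sex of the mice, and pooling hides the spread between mice.

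In the differentiating shaft, hair keratins appear first and keratin-associated proteins follow in the cells of the cortex and the cuticle. The sulfur-rich classes hold many cysteines, which form disulfide bonds with the keratins and with each other as the fibre hardens. High glycine-tyrosine proteins are short and rich in glycine and aromatic residues. In human hair, subfamilies 5, 10, 12 and 17 are known from the shaft cuticle, while the high glycine-tyrosine proteins are known mainly from the cortex. The genes lie in clusters of near copies, so that RNA of a neighbouring copy can add to the signal of a probe set, and every value below carries that uncertainty.

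Of the 38 genes, 36 exceeded the floor of 10.5 on both arrays, which marks the level under which signals were treated as background. The remaining genes, Krtap13 and Krtap5-3, lay under the floor on both arrays, with 0.9 and 0.4 in transgenic follicles against 2.0 and 1.5 in wild-type follicles. All signals are linear intensities in arbitrary units, and they depend on the probes as well as on the RNA, so that signals of different genes are not compared as RNA amounts. With 1 array per group, differences have no replicate check and no p-value, and this small number of arrays limits how precise any ratio can be. In pooled tissue, fewer cells of a type and less RNA per cell cannot be told apart.

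Both pools carried hair shaft RNA at high signals. Of 14 measured shaft genes (hair keratins, S100a3 and Padi3), 14 exceeded the floor, with a summed signal of 95788 in transgenic follicles and 92636 in wild-type follicles, and 8 of 8 inner root sheath genes did so with 61418 and 62581. Fgfr2 itself read 368 and 206 at its probe sets above the floor in transgenic follicles, against 197 and 147 in wild-type follicles, and whether these probe sets detect the transgene was not tested. The arrays also differed in ways outside this gene family. The companion layer and outer root sheath list summed to 17519.9 in transgenic follicles and 20976 in wild-type follicles over 6 of 6 genes, the epidermis list to 419 and 245 with Krt1, Krt2 and Flg under the floor on both, the fibroblast list to 2870.1 and 2047 over 5 of 5 genes, and the melanocyte list to 11993 and 13109 over 5 of 5 genes. In the fibroblast list, Dcn alone read 1589.7 and 985, and 1 of the 5 genes had a ratio under 1. Markers of adipocytes summed to 5174 in transgenic follicles and 7350.3 in wild-type follicles over 2 measured genes, nearly all from Fabp4 (5108 and 7211). Those of sebocytes summed to 1226 and 1395 over 3 genes, mostly from Elovl3 (1158 and 1329). In that list Mc5r went the other way at low signals, with 25.6 in transgenic follicles and 13.8 in wild-type follicles. Markers of immune cells summed to 76.4 and 40.6 over 3 of 4 genes, with Ptprc under the floor on both. Muscle markers (54.8 and 10.6, Ckm under the floor on both) and endothelial markers (57.1 and 19.3, Pecam1 under the floor on both) were near the background. The female-specific transcript Xist read 1146 in transgenic follicles and 352 in wild-type follicles, and the Y-linked gene Eif2s3y 0.4, under the floor, and 191. By these genes the wild-type pool held RNA of both sexes, while no male RNA was detected in the transgenic pool. The sex composition of the pools thus differed along with genotype. The part of these differences in the results below was not tested.

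As a family, the keratin-associated proteins read alike on both arrays, but a few members stood far apart. Summed over the 36 genes, the signal was 200879 in transgenic follicles and 210676 in wild-type follicles, which was 4.15% and 4.29% of the summed signal of all genes. The median log2 ratio, transgenic over wild type, was -0.03 over these genes, against 0.01 over all 14045 genes above the floor on at least 1 array. Its sign depended on the scaling, with -0.17 when the arrays were set to equal medians and 0.16 when they were set to equal spiked controls. Between the arrays 23 of the 36 genes differed by under 1.2-fold.

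Differences of 2-fold or more were found in 6 of the 36 genes, 3 in each direction (3 higher and 1 lower with equal spiked controls). Of the 11565 genes that exceeded the floor in both pools, 1.60% were higher by 2-fold or more in the transgenic one, 1.58% were lower to that degree, and 3.18% were either. Most genes of that background are dim, whereas the keratin-associated proteins are bright, and ratios scatter more among dim genes. The median absolute log2 ratio was 0.24 over all genes and 0.12 over those with a mean signal above 1000. Among the 1011 genes with a mean signal over 1000, 0.297% were higher by 2-fold or more, 0.890% were lower and 1.19% were either. Of the 12 bright genes in that count, 5 were keratin-associated proteins, all of the high glycine-tyrosine class, while that class supplied 14 and the whole family 35 of the 1011. The higher bright genes were Ighm, Krtap6-3 and Krtap21-1. The lower ones included Krtap19-1, Krtap19-4 and Krtap19-2, at positions 6, 7 and 9 from the bottom, and the lowest ratios belonged to genes outside the family. Between probe sets of the same gene that all exceeded a mean signal of 1000, the log2 ratio had an SD of 0.13 (245 probe sets of 105 genes), a spread that leaves out the differences between mice. It was 0.46 over all 911 probe sets of the 317 genes with several probe sets whose signal averaged over 1000 across them, which include dim probe sets such as the second ones of Krtap6-3 and Krtap19-1.

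**Figure D1:**
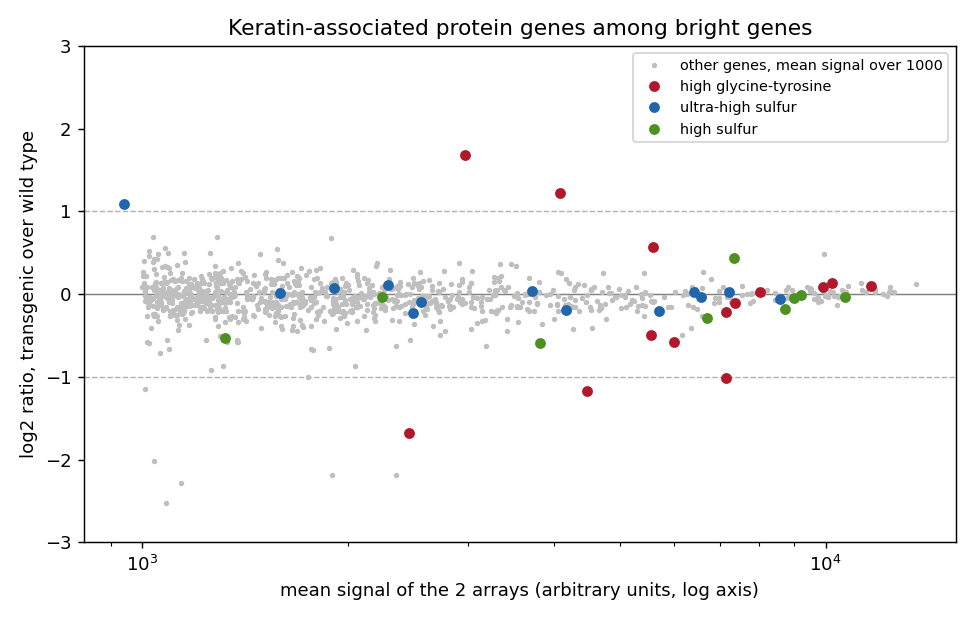
Log2 ratio, transgenic over wild type, against the mean signal of both arrays (log axis) for the keratin-associated protein genes (coloured by class) and for all other genes with a mean signal over 1000 (grey), with dashed lines at 2-fold. Ighm, at a log2 ratio of 8.94, lies outside the axis. High glycine-tyrosine genes lie on both sides of the grey band, while most sulfur-rich genes lie within it.

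The high glycine-tyrosine class held the widest range of ratios. All 14 of its genes exceeded the floor, with signals from 1169.6 to 12056 in transgenic follicles and from 1412 to 11256 in wild-type follicles. Their log2 ratios ran from -1.68 to 1.68 with an SD of 0.89 across genes, against 0.33 across 13 ultra-high sulfur genes and 0.31 across 9 high sulfur genes. The class sum was nevertheless 89723 in transgenic follicles and 95535 in wild-type follicles, and the median log2 ratio was -0.05, with 7 genes above a ratio of 1 and 7 under it. Under every scaling, floor and gene value tried, 3 of the 14 stayed above 1 (Krtap6-2, Krtap6-3 and Krtap21-1), 6 stayed under it (Krtap16-3 and Krtap19-1 to Krtap19-5), and 5 changed sign. The typical size of a difference, as the median absolute log2 ratio, was 0.54 in this class, 0.07 in the ultra-high sulfur class, 0.18 in the high sulfur class and 0.12 among the bright genes.

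**Figure D2:**
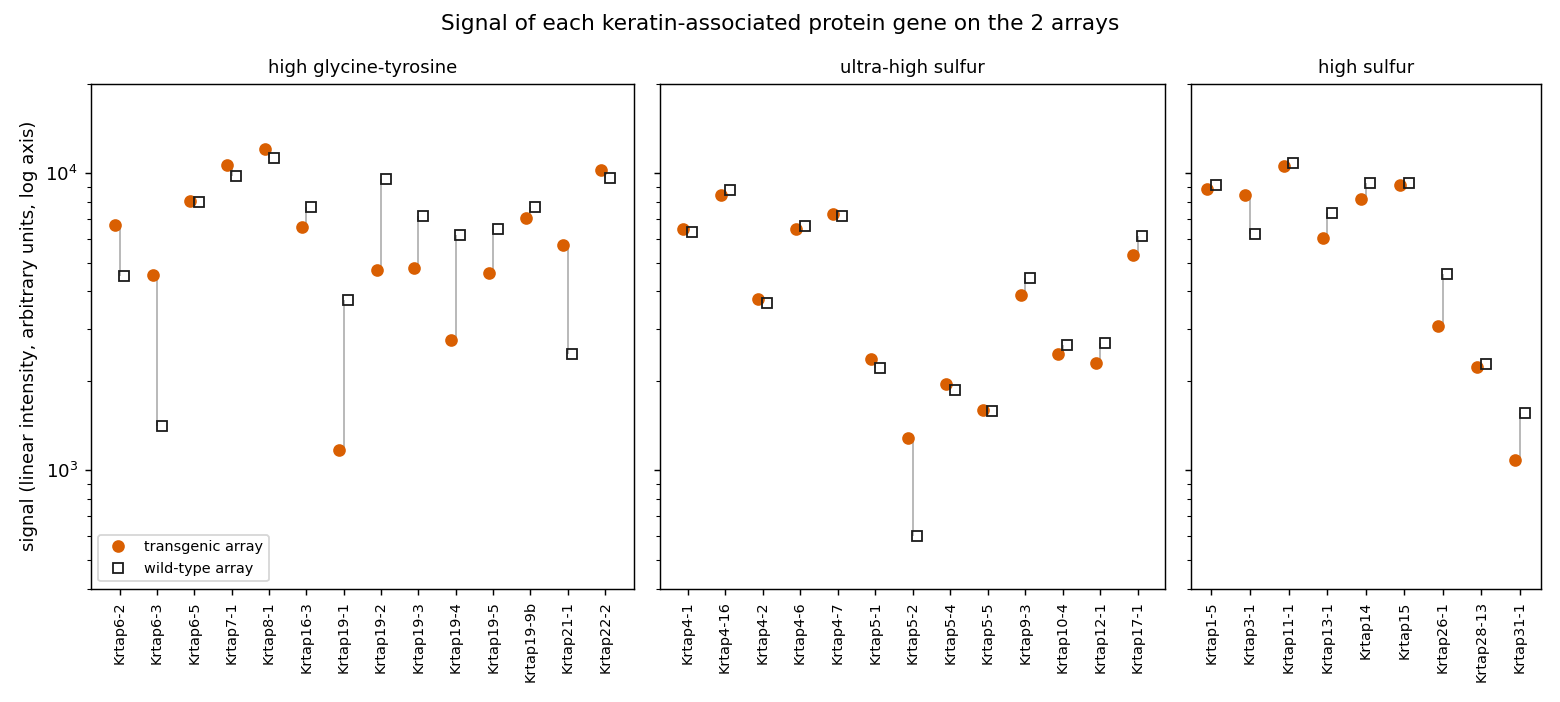
Signal (linear intensity, log axis) of the 36 measurable keratin-associated protein genes by class, with filled circles for transgenic follicles and open squares for wild-type follicles, with a grey line joining the values of a gene. The longest lines belong to Krtap6-3, Krtap19-1, Krtap19-4, Krtap21-1 and Krtap5-2, and most ultra-high sulfur genes show overlapping symbols.

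Subfamilies 6 and 21 held the higher genes of this class. Krtap6-3 read 4526 in transgenic follicles and 1412 in wild-type follicles, a 3.21-fold difference (log2 ratio 1.68). It ranked at position 18 from the top among all genes above the floor on both arrays and at position 2 among the bright ones. A second, dim probe set of Krtap6-3 went the same way, with 115 in transgenic follicles and 43.6 in wild-type follicles (log2 ratio 1.41). Krtap21-1 followed at 5720.0 in transgenic follicles and 2454 in wild-type follicles, 2.33-fold higher and at position 3 among the bright genes. Krtap6-2 read 6680.3 and 4491 in transgenic and wild-type follicles, a log2 ratio of 0.57 that did not reach 2-fold but stood at position 7 among the bright genes. Krtap6-5, of the same subfamily, read 8067 in transgenic follicles and 7979 in wild-type follicles and so had almost the same signal on both.

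Subfamily 19 lay on the other side, with a ratio under 1 in all 6 of its measured genes, except that Krtap19-9b was at 0.08 on the log2 scale with equal spiked controls. Read by its brighter probe set, Krtap19-1 had the lowest ratio, with 1169.6 in transgenic follicles and 3738 in wild-type follicles, 3.20-fold lower (log2 ratio -1.68). Its other probe set went the opposite way at a far lower signal, 106 in transgenic follicles and 81.8 in wild-type follicles (log2 ratio 0.37). With the mean over both probe sets the log2 ratio of Krtap19-1 was -0.65, which was under 2-fold and nearer to 0 than that of Krtap19-4 and Krtap19-2. Krtap19-4 read 2753 in transgenic follicles and 6189.5 in wild-type follicles (2.25-fold lower), and Krtap19-2 read 4723 and 9586 (2.03-fold lower, and under 2-fold at -0.98 on the log2 scale with loess). Under 2-fold were Krtap19-3, with 4804 in transgenic follicles and 7191 in wild-type follicles (log2 ratio -0.58), and Krtap19-5, with 4605 and 6503 (-0.50). Krtap19-9b, at 7089 in transgenic follicles and 7670.0 in wild-type follicles, was the member of the subfamily nearest to a ratio of 1. Summed, subfamily 19 gave 25144 in transgenic follicles and 40877 in wild-type follicles, and the other 8 genes of the class gave 64579.6 and 54657.

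The remaining high glycine-tyrosine genes were bright and close to a ratio of 1. Krtap8-1, with the brightest probe set of the family, read 12056 in transgenic follicles and 11256 in wild-type follicles. Krtap7-1 read 10684 and 9759, and Krtap22-2 read 10246 and 9613, in transgenic and wild-type follicles. Krtap16-3 had log2 ratios of -0.22 and -0.21 at its probe sets, the brighter of which read 6599.5 in transgenic follicles and 7694 in wild-type follicles. The array maxima were 14817 in transgenic follicles and 13964 in wild-type follicles. Whether ratios are compressed so close to the maximum was not tested, and the 5 members with a mean signal over 9000 had log2 ratios between -0.03 and 0.13.

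**Figure D3:**
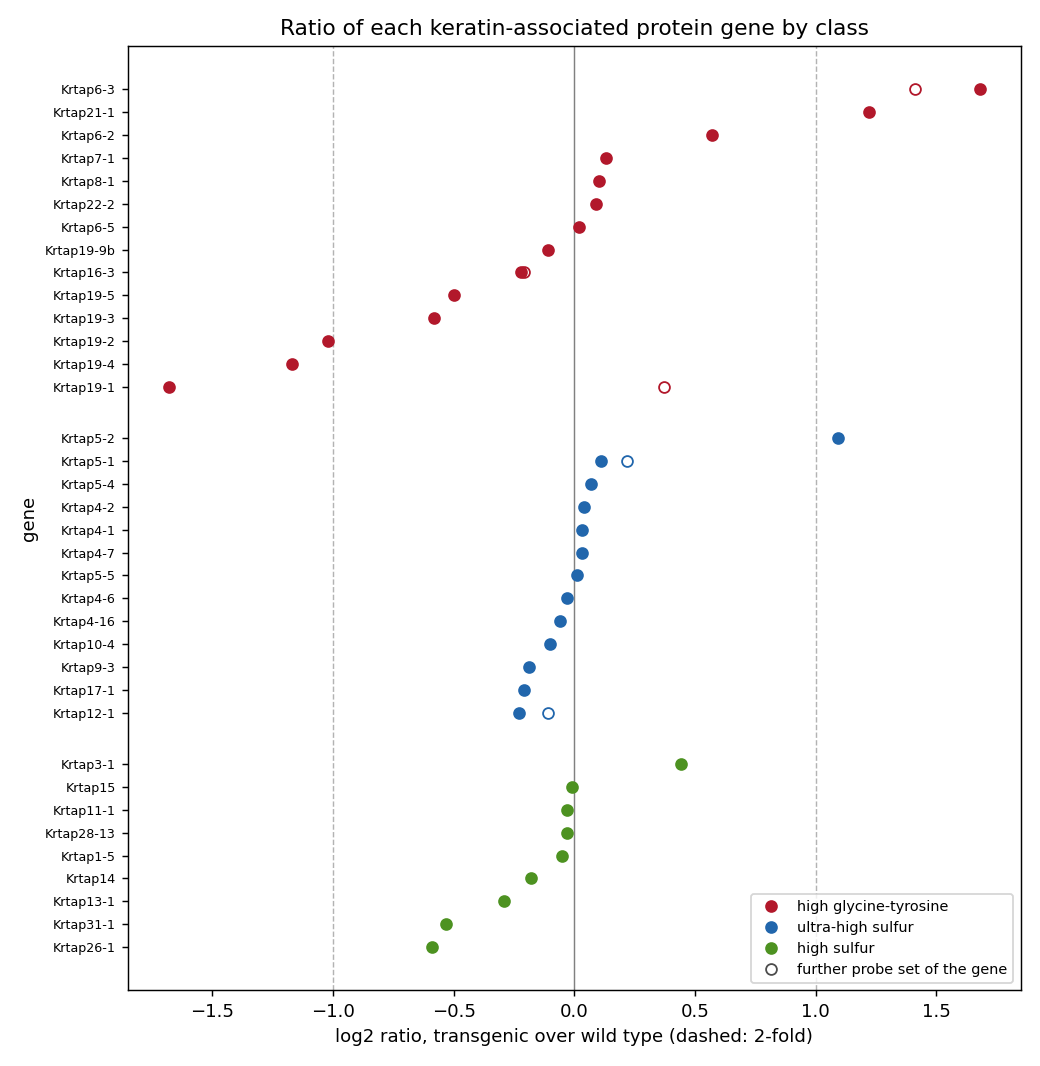
Log2 ratio, transgenic over wild type, of each keratin-associated protein gene above the floor (filled) and of the further probe sets of a gene (open), by class, with dashed lines at 2-fold. The high glycine-tyrosine genes run from Krtap6-3 at 1.68 to Krtap19-1 at -1.68, and the open circle of Krtap19-1 at 0.37 lies on the other side of 0.

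All 14 high glycine-tyrosine genes lie in the chromosome 16 cluster, together with 6 high sulfur genes, and low and high ratios each stood in a run of measured members there. The runs described here were set after the values were seen and carry no test. Read along the chromosome in the RefSeq gene table, the high sulfur genes Krtap26-1, Krtap13-1, Krtap14 and Krtap15 came first, with log2 ratios of -0.59, -0.29, -0.18 and -0.01. The next 5 members, from Krtap19-1 to Krtap19-5, are direct neighbours in the table and gave the low ratios, from -1.68 to -0.50, with a summed signal of 18054 in transgenic follicles and 33207 in wild-type follicles. Then came 4 members near 1, from Krtap19-9b to Krtap6-5 (-0.22 to 0.09). Krtap6-3, Krtap21-1 and Krtap6-2 followed as the next 3 measured members, with 1.68, 1.22 and 0.57 and a summed signal of 16927 in transgenic follicles and 8356 in wild-type follicles, although other genes lie between Krtap6-3 and Krtap21-1. The cluster ended with Krtap8-1, Krtap7-1 and Krtap11-1, between -0.03 and 0.13. The absolute difference in log2 ratio had a median of 0.41 over the 18 pairs of neighbouring measured members and of 0.63 over all 171 pairs, as a description of these arrays. Neighbours also differed sharply, as with Krtap15 at -0.01 beside Krtap19-1 at -1.68 and Krtap6-5 at 0.02 before Krtap6-3 at 1.68. The runs followed subfamilies only in part. Krtap19-9b and Krtap6-5 differed in ratio from the rest of their subfamilies, although Krtap19-9b lies directly beside Krtap19-5. Krtap21-1 lay between members of subfamily 6.

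**Figure D4:**
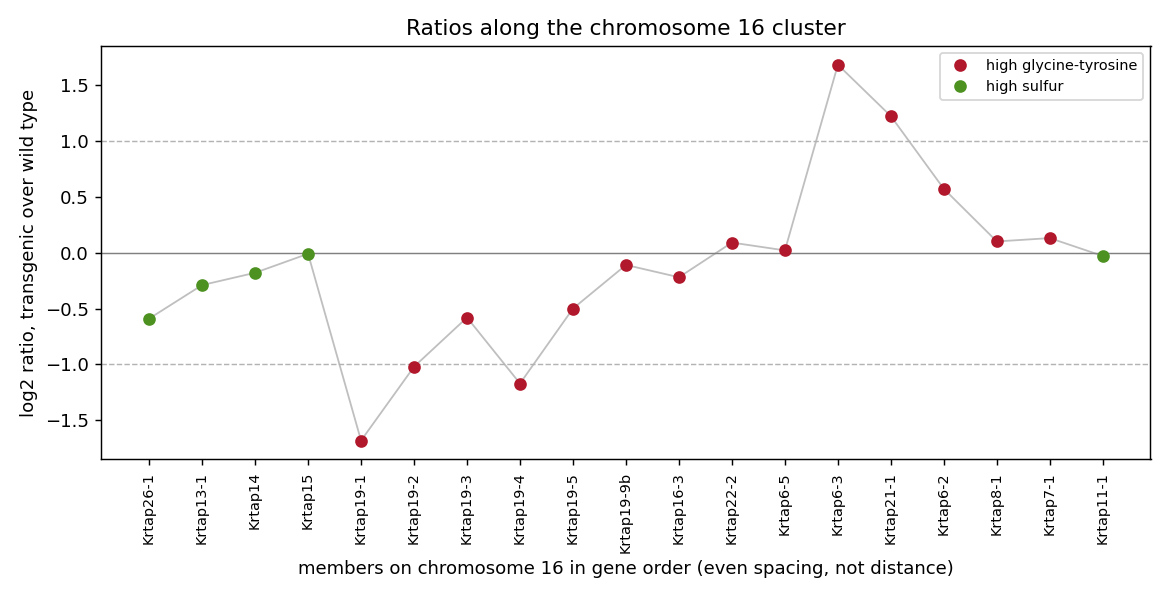
Log2 ratio, transgenic over wild type, of the 19 members on chromosome 16 above the floor, in gene order with even spacing, coloured by class, with dashed lines at 2-fold. A run of low ratios from Krtap19-1 (-1.68) to Krtap19-5 (-0.50) is followed by values near 0 and then by the high ratios of Krtap6-3 (1.68), Krtap21-1 (1.22) and Krtap6-2 (0.57).

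To set the members that stood apart beside each other, the sequences just upstream of their starts were read from RefSeq (GRCm38.p6), where 36 of the 38 members had an entry. The 120 bases before the annotated start are given 5′ to 3′ on the strand of the gene for the members at least 2-fold apart and for Krtap19-3, which lies between them, with TATAA, the core of a TATA box, in capitals.
Krtap6-3 (chr16:89083904-89084023, + strand): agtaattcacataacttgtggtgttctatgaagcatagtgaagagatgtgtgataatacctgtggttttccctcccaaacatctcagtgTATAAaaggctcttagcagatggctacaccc
Krtap21-1 (chr16:89403775-89403894, - strand): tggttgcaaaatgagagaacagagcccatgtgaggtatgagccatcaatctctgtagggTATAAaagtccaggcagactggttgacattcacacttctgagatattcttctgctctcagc
Krtap5-2 (chr7:142176006-142176125, - strand): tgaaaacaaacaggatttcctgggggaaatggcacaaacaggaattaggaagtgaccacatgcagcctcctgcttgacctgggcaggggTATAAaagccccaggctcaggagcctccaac
Krtap19-1 (chr16:88869411-88869530, - strand): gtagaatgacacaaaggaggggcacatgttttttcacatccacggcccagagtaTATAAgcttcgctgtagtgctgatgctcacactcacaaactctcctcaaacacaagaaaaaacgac
Krtap19-2 (chr16:88874270-88874389, - strand): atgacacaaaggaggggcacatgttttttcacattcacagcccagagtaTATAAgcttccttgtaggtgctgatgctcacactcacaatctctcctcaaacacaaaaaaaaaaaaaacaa
Krtap19-3 (chr16:88878039-88878158, - strand): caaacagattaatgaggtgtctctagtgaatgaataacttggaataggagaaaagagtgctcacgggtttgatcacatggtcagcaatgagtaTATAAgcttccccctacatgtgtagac
Krtap19-4 (chr16:88885090-88885209, - strand): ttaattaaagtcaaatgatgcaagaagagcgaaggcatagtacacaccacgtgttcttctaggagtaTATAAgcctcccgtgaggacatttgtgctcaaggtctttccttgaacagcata

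The letters TATAA were common just upstream of the family. TATAA stood on the gene's strand within 80 bases of the start in 35 of 36 members, the exception being Krtap5-4, and in 7.01% of all 27025 upstream sequences in the table. In the printed sequences it began between 27 bases (Krtap19-3) and 71 bases (Krtap19-2) before the annotated start. Whether each match works as a TATA box was not tested. The stretch GAGTATATAAGC was picked out after the sequences were seen. It is the longest one shared by the 80 bases before the start in Krtap19-1, Krtap19-2, Krtap19-3 and Krtap19-4. Its presence in these 4 was thus fixed by the choice. It stood in that window in 0 of the other 32 members and in 0.0185% of all upstream sequences, which were 5 genes, namely these 4 and Il12b. Stretches of that length are rare in any window of 80 bases, so its absence elsewhere draws no link to the ratios. Krtap19-5, Krtap19-9b, Krtap6-3, Krtap21-1 and Krtap5-2 held TATAAAA, which overlaps TATAA, among 20 of the 36 members and 1.5% of all upstream sequences, so that this form occurred on both sides of a ratio of 1. Over the 120 bases, Krtap19-1 and Krtap19-2 were 84.9% identical in a global alignment, while the other pairs of subfamily 19 were between 44.7% and 61.0% identical and pairs of different subfamilies of the high glycine-tyrosine class between 41.5% and 59.4%. Short sites known to be bound by factors of the follicle were searched on both strands of the 250 bases before the start. The LEF1 and TCF core CTTTGA was present in 9 of 36 members (14% of all upstream sequences) and GACGC, which holds the FOXN1 core, in 2 (22.6%). CCGGAA, a form of the ETS site longer than its core GGAA, was present in 0 (12.2%) and the AP-1 site TGANTCA in 7 (6.87%). These matches are letters in a window and do not show binding. Other forms of the sites were not searched, so the 0 does not show that ETS sites are absent. CCGGAA and GACGC hold the letters CG, and the CG content of the sequences was not compared.

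The ultra-high sulfur class was the most even of the family, apart from a single gene. Of its 13 genes above the floor, 12 differed by under 1.2-fold, and the class summed to 53602 in transgenic follicles and 54709 in wild-type follicles, with a median log2 ratio of 0.01. The exception was Krtap5-2, which read 1280.4 in transgenic follicles and 599.7 in wild-type follicles, 2.14-fold higher (log2 ratio 1.09, position 122 from the top among all genes above the floor on both arrays). With the arrays set to equal medians it was under 2-fold, at 0.95. Its neighbours of subfamily 5 in the chromosome 7 cluster did not share that difference. Krtap5-5 read 1601 in transgenic follicles and 1585 in wild-type follicles, Krtap5-4 read 1958 and 1859, and Krtap5-1 read 2372 and 2202, with log2 ratios of 0.11 and 0.22 at its probe sets.

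The chromosome 11 genes of subfamily 4 were the closest to a ratio of 1. Krtap4-1, Krtap4-2, Krtap4-6, Krtap4-7 and Krtap4-16 had log2 ratios between -0.06 and 0.04, and summed to 32444 in transgenic follicles and 32571 in wild-type follicles. The brightest of them, Krtap4-16, read 8410.2 in transgenic follicles and 8749 in wild-type follicles, Krtap4-7 read 7287 and 7152, and Krtap4-6 read 6507 and 6651. Slightly lower in transgenic follicles were Krtap12-1 (2290.2 in transgenic follicles and 2684 in wild-type follicles, with log2 ratios of -0.23 and -0.11 at its probe sets), Krtap17-1 (5296 and 6126), Krtap9-3 (3897 and 4434) and Krtap10-4 (2463 and 2648). None of these reached 1.2-fold in the reported setting. With equal spiked controls, Krtap9-3 and Krtap10-4 stood above a ratio of 1, at 0.01 and 0.09 on the log2 scale. Under the scalings, floors and gene values tried, 10 of the 13 ultra-high sulfur genes above the floor changed sign.

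Among the 9 measurable high sulfur genes, 8 read lower in transgenic follicles and 0 differed by 2-fold or more, although 5 of the 9 changed sign with the scaling. The class summed to 57553 in transgenic follicles and 60432 in wild-type follicles, with a median log2 ratio of -0.05, which was 0.14 with equal spiked controls. Krtap26-1 was the lowest, with 3049.7 in transgenic follicles and 4579 in wild-type follicles (1.5-fold lower). Krtap31-1 read 1081 and 1565 (log2 ratio -0.53) and Krtap13-1 read 6038 and 7367 (-0.29) in transgenic and wild-type follicles. Krtap3-1 was the gene of the class above 1, at 8456 in transgenic follicles and 6218 in wild-type follicles, a log2 ratio of 0.44 and position 18 from the top among the bright genes. The brightest probe sets were those of Krtap11-1 (10566 in transgenic follicles and 10784 in wild-type follicles), Krtap15 (9155 and 9227) and Krtap1-5 (8827 and 9150.2). Krtap14 and Krtap28-13 had log2 ratios of -0.18 and -0.03.

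Lowering the threshold to 1.5-fold added a single member, Krtap26-1, to give 3 higher and 4 lower genes. At that threshold 6.36% of the 11565 genes were higher, 6.78% lower and 13.1% either. Of the bright genes, 0.593% were higher, 2.18% lower and 2.77% either. The members just inside the 2-fold threshold were Krtap19-2 and Krtap5-2, and those nearest outside it were Krtap26-1, Krtap19-3 and Krtap6-2.

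The partners of these proteins in the shaft were close to a ratio of 1 as well, with 1 exception. Of the 14 measured shaft genes, 0 were 2-fold higher and 1, the type II hair keratin Krt84, was 2-fold lower, at 29.4 in transgenic follicles and 619 in wild-type follicles. Krt32 had a log2 ratio of -0.22 and Krt35 of 0.27, and the list's median was 0.07. Among 10 transcription factors of the shaft and the inner root sheath, 0 were 2-fold apart with both signals above the floor. Barx2 read 1.40 in transgenic follicles, under the floor, and 40.5 in wild-type follicles. Foxq1, which acts in the medulla, read 257 in transgenic follicles and 408 in wild-type follicles (log2 ratio -0.67), and Lef1, an effector of Wnt signalling, read 425 and 362. Hoxc13, known to act on hair keratin and keratin-associated protein genes, read 767 in transgenic follicles and 655 in wild-type follicles, and Foxn1, needed for shaft differentiation, read 775 and 759.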

How the data were processed

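Gene expression was measured in pooled follicles on 2 Affymetrix mouse expression arrays, 1 per group. The deposited values are linear intensities of probe sets. Both arrays have a 2% trimmed mean of 100, a scaling made before deposit. The summary algorithm is not given in the sources used here. A global scaling hides any shift shared by all genes. Of 45101 probe sets, 64 controls were left out, and 34945 of the rest had 1 symbol in the platform annotation. All 38 members matched the RefSeq table (GRCm38.p6) under the same symbol. Both arrays were rescaled to a common 2% trimmed mean without controls, values under the floor (the 40th percentile of both arrays) were set to it, and the brightest probe set on average stood for its gene. Genes were called where both signals exceeded the floor and differed by 2-fold or more. Class assignment followed subfamily numbers, and protein composition was not analysed here. Named members were those 2-fold apart at any probe set, the brightest and most different 3 of each class, members under the floor and members with discordant probe sets, and other members are given by range or value. From other lists, up to 3 genes of the largest absolute log2 ratio are named, besides undetected markers, while Hoxc13, Foxn1 and genes beside the members were added after values were seen. The members and lists were chosen with earlier results of these data known. The calling and scaling steps were tested on simulated data. Alternatives covered scaling, floor, threshold and gene summary. Analyses used Python 3.11.15, pandas 2.3.3, scipy 1.17.1 and statsmodels 0.14.6.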

Additional observations from a re-analysis of the deposited data

How the results depend on the processing

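Ratios depend on the scaling of the arrays. Over all genes, the median log2 ratio was -0.13 with equal medians and 0.19 with equal spiked controls. With equal medians, the medians became -0.17 over all keratin-associated protein genes, -0.19 for the high glycine-tyrosine, -0.13 for the ultra-high sulfur and -0.19 for the high sulfur class. With equal spiked controls they became 0.16, 0.14, 0.21 and 0.14, and 1 gene, Krtap19-1, stayed at least 2-fold lower in place of 3, beside 3 higher. Class medians therefore have no settled sign, whereas the difference between members on the same arrays does not change with a common factor. At 3-fold, 1 gene was higher (Krtap6-3) and 1 lower (Krtap19-1). The mean over probe sets moved Krtap19-1 to -0.65, under 2-fold. Over the reported setting and its alternatives in scaling, floor and gene value (12 in all), Krtap6-3 ran from 1.54 to 1.87, Krtap21-1 from 1.08 to 1.41, Krtap5-2 from 0.95 to 1.29, Krtap19-4 from -1.31 to -0.98 and Krtap19-2 from -1.16 to -0.83, and 0 of the called genes reversed. Of 395 values of single genes under an alternative, 321 moved by less than 0.13. That is the SD between probe sets of genes whose probe sets all exceeded 1000, the narrowest of the spreads computed. With equal medians and with equal spiked controls, each of the 36 genes moved by at least that much. Other floors could hardly move genes so bright, and leaving out the rescaling changed little because the trimmed means were already nearly equal. The count therefore depends largely on which alternatives were tried. Over all genes the calls, 185 higher and 183 lower, became 115 and 296 with equal medians, 314 and 103 with equal spiked controls, 140 and 231 with quantile normalization, 131 and 238 with loess, and 22 and 37 with a floor of 50. No paired analysis was possible because each group holds 1 array.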

Other observations

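Other genes of the chromosome 16 cluster with a probe set of their own, taken by position between the outermost members, numbered 6, of which 4 exceeded the floor in both pools. 2310061N02Rik, between Krtap26-1 and Krtap13-1, read 131 in transgenic follicles and 564 in wild-type follicles, a log2 ratio of -2.11. Gm9789, between Krtap6-3 and Krtap21-1, read 98.1 in transgenic follicles and 27.5 in wild-type follicles (1.83). Gm10229 and Gm10228, between Krtap22-2 and Krtap6-5, were bright, with 11181 and 11616 in transgenic follicles, 10397 and 8302 in wild-type follicles, and log2 ratios of 0.10 and 0.48. The other 2 such genes lay under the floor on both arrays. Of the genes flanking the members, Cldn8 read 159 in transgenic follicles and 65.2 in wild-type follicles (1.29) and 2310079G19Rik read 14.7 and 33.4 (-1.18), both on the side of Krtap26-1. On the side of Krtap11-1, Tiam1 (-0.02) and Sod1 (-0.05) were close to a ratio of 1, while Scaf4 had a log2 ratio of 0.83 and Hunk of 0.41. Differences between the pools thus also occurred at genes beside the cluster, though at low signals, where ratios scatter more. Of the 56 protein-coding genes that the RefSeq table lists from Krtap26-1 to Krtap11-1, 30 had no probe set with a single symbol here, so that the order shown has gaps, most of them between Krtap6-3 and Krtap21-1.

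In the chromosome 11 cluster, the 3 further genes with a probe set of their own, Gm11563, Gm11559 and Gm11567, had log2 ratios of -0.01, -0.08 and -0.16. Another 6 probe sets are annotated to several genes that include a keratin-associated protein and were not counted above. Their log2 ratios ran from -0.28 to 0.55, and the highest was that of the dimmest, with 163 in transgenic follicles and 112 in wild-type follicles.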
